A study of Mus musculus with 4 samples.

Results

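Oxidative phosphorylation genes encode the respiratory chain of mitochondria, which passes electrons to oxygen and pumps protons, and the ATP synthase, which uses the proton gradient to make ATP. The genes taken here are those of the nucleus whose array name begins with Nduf, Uqcr, Atp5, Cox4, Cox5, Cox6, Cox7 or Cox8, together with Sdha, Sdhb, Sdhc, Sdhd and Cyc1. The name Cox6a2 and names with -ps were left out. The rule found 90 genes among 31660 genes on the array, and 86 of them were bright enough to be tested among 19384 tested genes. By complex these were 37 of 38 genes of complex I, all 4 complex I assembly factors, all 4 genes of complex II, all 9 of complex III, 15 of 18 of complex IV and all 17 of complex V. The 4 genes not tested were Ndufa4l2, Cox7b2, Cox8b and Cox8c, which were not well above background on any array. A name is not proof of a role, and 3 named genes are not subunits by their RefSeq symbol: Cox4nb is Emc8, of a membrane protein complex of the endoplasmic reticulum, Atp5s is Dmac2l and Atp5sl is Dmac2. Without these and the 4 assembly factors, 83 genes remained, of which 79 were tested.

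The nuclear genes hold the code for most subunits of these complexes, while a small set of core subunits is made from mitochondrial DNA and was not analysed here. Complex I takes electrons from NADH, complex II takes them from succinate and is also an enzyme of the citric acid cycle, complex III passes them to cytochrome c, complex IV hands them to oxygen, and complex V is the ATP synthase. In blood-forming tissue, stem cells are known to rely on them less than dividing progenitors do.

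RNA was measured in preproB cells, an early B-cell stage, taken from C57BL/6 bone marrow by a sort for B220 and CD43 without BP1, CD24 or lineage antigens. The EnhDel group had both alleles of the enhancer 37 kb from Cebpa floxed and carried Mx1-Cre, a recombinase driven by an interferon-inducible promoter. The control group had the same floxed alleles without Cre. Both groups received 3 doses of pIpC, a double-stranded RNA that induces interferon, and marrow was taken 5 weeks later. Each group had 2 arrays, each of 1 sample. The labels give 24 weeks and male for both EnhDel samples and for control replicate 2, and 26 weeks and female for control replicate 1. Only the EnhDel group carried Cre, so loss of the enhancer and presence of the recombinase cannot be told apart.

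Values below are either scaled signals, which are background-subtracted array intensities brought to one 75th percentile on all arrays, or log2 differences of them, EnhDel minus control. Each array detected 23487 to 25578 of its 39429 probes above background, with saturation at 0 spots. Cebpa itself, the gene next to the deleted enhancer, had a scaled signal of 134 and 287 on the EnhDel arrays, against 1301 and 846 on the control arrays. The arrays of the EnhDel group lay further apart than those of the control group, with an SD over genes of 0.61 between the EnhDel replicates and of 0.33 between the control replicates, on the log2 scale. In 2 samples sex-linked genes went against the labels. Xist, the RNA of the inactive X chromosome, had a scaled signal of 597 on EnhDel replicate 2, labelled male, and was not well above background on the other arrays, the one labelled female among them. Ddx3y, of the Y chromosome, read 3883 and 1559 on EnhDel replicates 1 and 2, against 3190 and 3169 on control replicates 1 and 2. EnhDel replicate 2 therefore stood apart, and the results below are given with and without it. No source used here says that replicates came from separate animals beyond these labels, so p-values measure only the spread between the samples.

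Promoters of these genes are known for a few sequence motifs, those of NRF1, of the ETS factors (bound by GABP, also called NRF2) and of YY1, and 4 promoters are printed to show them beside the values that follow. They are Sdhd, with an NRF1 and an ETS match; Ndufs6, with an NRF1 and a YY1 match; Atp5e, the ATP synthase gene with the lowest difference, with an ETS match; and Cox6b2, the gene with the lowest difference of all 86, with no match. Each is a window of 300 bases from RefSeq, build GRCm38.p6, from 250 bases before the annotated start to 50 after it, written 5′ to 3′ along the gene. Capitals mark matches on either strand to GCGCNNGCGC (NRF1), CCGGAAG (ETS) or AAGATGGC (YY1). The windows lie on the minus strand at chr9:50603800-50604099 (Sdhd), chr13:73328433-73328732 (Ndufs6), chr2:174464052-174464351 (Atp5e) and chr7:4753045-4753344 (Cox6b2).
Sdhd: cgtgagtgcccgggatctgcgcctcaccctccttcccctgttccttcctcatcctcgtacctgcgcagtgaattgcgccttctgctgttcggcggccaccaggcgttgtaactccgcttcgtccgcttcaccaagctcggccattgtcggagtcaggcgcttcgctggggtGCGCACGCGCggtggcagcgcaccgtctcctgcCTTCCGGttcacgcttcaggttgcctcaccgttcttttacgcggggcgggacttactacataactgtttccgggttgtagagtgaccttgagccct
Ndufs6: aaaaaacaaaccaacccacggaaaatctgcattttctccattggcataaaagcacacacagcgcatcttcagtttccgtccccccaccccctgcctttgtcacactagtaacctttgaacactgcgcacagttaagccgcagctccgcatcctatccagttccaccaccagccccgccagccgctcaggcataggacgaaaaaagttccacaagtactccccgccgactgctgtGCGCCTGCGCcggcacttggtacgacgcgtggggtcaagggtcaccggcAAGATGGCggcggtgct
Atp5e: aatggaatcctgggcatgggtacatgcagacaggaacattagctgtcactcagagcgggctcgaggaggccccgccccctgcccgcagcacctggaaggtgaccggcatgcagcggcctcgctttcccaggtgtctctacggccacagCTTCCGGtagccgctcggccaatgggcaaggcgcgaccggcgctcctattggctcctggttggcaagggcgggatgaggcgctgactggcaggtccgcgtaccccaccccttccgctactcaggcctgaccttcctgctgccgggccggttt
Cox6b2: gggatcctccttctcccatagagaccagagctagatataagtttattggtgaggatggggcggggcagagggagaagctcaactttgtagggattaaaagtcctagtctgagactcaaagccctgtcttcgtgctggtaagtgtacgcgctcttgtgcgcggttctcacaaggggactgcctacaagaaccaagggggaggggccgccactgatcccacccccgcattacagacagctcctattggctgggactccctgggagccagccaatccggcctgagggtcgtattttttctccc

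No oxidative phosphorylation gene passed the test. In limma's fit over all genes with Benjamini-Hochberg adjustment, 0 of 86 had an adjusted p under 0.05, and the lowest was 0.304. The same held for all 19384 genes tested, where 0 passed and 2129 had an unadjusted p under 0.05. Differences were small: they ran from -0.77 to 0.53 on the log2 scale, none reached 2-fold, and the median standard error was 0.18. Of all genes tested, 6.26% were at least 2-fold apart.

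Most of the genes lay slightly below control. The difference was below 0 for 69 of 86 genes, and 41.5% of all genes tested were below 0. The median over the 86 genes was -0.12, against 0.06 over all genes tested. The 79 subunit genes had a median of -0.12 with 65 below 0. Both EnhDel arrays lay below both control arrays for 16 genes, 18.6% of the 86, beside 16.6% of all genes tested, which is near the background. Both EnhDel arrays lay above both control arrays for 1 gene, Atp5sl, beside 27.2% of all genes tested. At an unadjusted p under 0.05, 1 gene was lower, Cox6b2, beside 4.16% of all genes, and 0 were higher, beside 6.82%. Both counts without overlap moved with the processing, from 10 to 71 genes lower and from 0 to 10 higher over the 7 ways of scaling shown further on. The 71 were found with normexp, beside 23.3% of all genes tested, and the 10 lower in the authors' deposited table, beside 15.0%. Normexp was also run after repair of 6 spots of EnhDel replicate 1 with a high local background. It then gave 14 genes lower and 3 higher, beside 16.1% and 29.2% of all genes tested. Over all genes tested, the shares higher and lower were 36.5% and 23.3% with normexp, 14.7% and 15.0% in the deposited table, 14.25% and 31.9% with median scaling, 22.1% and 20.2% with quantile normalization, and 21.0% and 21.9% with cyclic loess. With the 75th percentile the shift was thus made of many small differences of the same sign, mostly with overlapping groups. With normexp before repair 71 genes were lower without overlap, and with median scaling 46 were. Genes share the arrays and are not replicates of the condition, so these counts describe these 4 samples.

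The shift came from 1 of the EnhDel arrays. Measured against the mean of the control arrays, the median of the 86 genes was 0.03 on EnhDel replicate 1 but -0.27 on EnhDel replicate 2, beside 0.03 and -0.03 on the control arrays. Over all genes tested the same medians were 0.04 and 0.07 on the EnhDel arrays. On EnhDel replicate 1, 29 of 86 genes lay below the control mean, and on EnhDel replicate 2, 77 did. Of all 19384 genes tested, 8094 did on EnhDel replicate 1 and 8649 (44.6%) on EnhDel replicate 2. EnhDel replicate 2 was the lowest of the 4 arrays for 72 of the 86 genes, and for 6707 of all 19384 genes tested. Without EnhDel replicate 2, the median of the 86 genes was 0.03 and 0 genes passed. Without EnhDel replicate 1, the median was -0.27 and 4 genes passed in limma's fit, which then takes the lone array to vary as the controls do: Cox4i2 at an adjusted p of 0.0302, Cox6b2 at 0.0332, Ndufa4 at 0.0411 and Ndufab1 at 0.0434. In that fit 3221 genes passed in all.

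**Figure D1:**
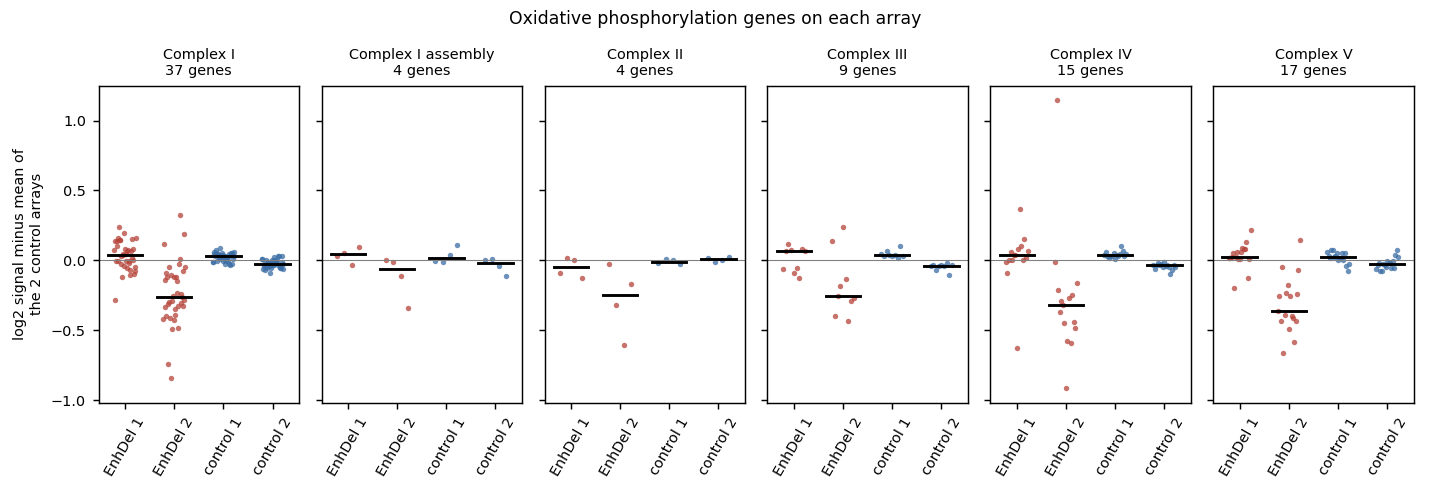
Each point is 1 of the 86 tested genes on 1 array, as its log2 signal minus the mean of both control arrays (vertical axis), in a panel per complex; the horizontal bars are medians. In every panel the EnhDel 1 median lies near 0, and, outside the assembly factors, the EnhDel 2 median lies between -0.36 and -0.24.

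Complex I, the NADH dehydrogenase, had a median difference of -0.10 over 37 genes, with 28 below 0 and 8 lower without overlap. Its array medians were 0.04 on the first EnhDel array and -0.26 on the second. The 7 core subunits made from nuclear DNA, which hold the flavin and the iron-sulfur clusters or line the path to ubiquinone, did not share this low median. Their medians were -0.07 and -0.02 on the EnhDel arrays, and 4 of 7 lay below the control mean on EnhDel replicate 2. The core subunits were not alike on that array: Ndufs8 and Ndufv2 were at -0.33 and -0.28, and Ndufv1 was at 0.19. The other 30 subunits, called supernumerary or accessory, had medians of 0.04 and -0.29. Of these, 29 of 30 lay below the control mean on EnhDel replicate 2, beside 44.6% of all genes tested. Lower without overlap were 2 of the 7 core subunits and 6 of the 30 others, beside 16.6% of all genes tested. The grouping into core and accessory subunits is from textbook knowledge, and the difference between them was not tested.

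Among the core subunits, Ndufv1, which binds the flavin that accepts electrons from NADH, had a scaled signal of 14149 and 16986 on the EnhDel arrays, against 14997 and 14772 on the control arrays. The EnhDel values lay on either side of the control values. Ndufs1, the largest subunit of the iron-sulfur path, read 5513 and 5699 on the EnhDel arrays, against 5784 and 5797 on the control arrays. Both of its EnhDel values were below control, by -0.05 ± 0.14 in all (SE, n = 2 per group). Ndufs8, which carries iron-sulfur clusters, read 6673 and 5701 on the EnhDel arrays, against 7008 and 7294 on the control arrays. This was the lowest difference of the core subunits, -0.21 ± 0.16, at an adjusted p of 0.696. Ndufs3 and Ndufs7, 2 further core subunits, differed by 0.04 ± 0.15 and 0.00 ± 0.16. Ndufv2, a partner of Ndufv1, read 13236 and 11208 on the EnhDel arrays, against 14248 and 13072 on the control arrays, with overlap.

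The accessory subunits held the lowest values of complex I. Ndufab1, the mitochondrial acyl carrier protein, had a scaled signal of 529 and 321 on the EnhDel arrays, against 612 and 539 on the control arrays. Its groups did not overlap, EnhDel replicate 1 lying just under control replicate 2, and the difference was -0.48 ± 0.29 at an adjusted p of 0.619. In build mm9 the Ndufab1 probe spans chromosome 7, bases 129231667 to 129231726. Ndufa4, first assigned to complex I and since described as a subunit of complex IV, read 14516 and 8749 on the EnhDel arrays, against 14558 and 14608 on the control arrays. EnhDel replicate 1 was level with the controls, and the difference of -0.37 ± 0.29 came from EnhDel replicate 2. Ndufa4l2, its relative that is known to be induced by low oxygen, was not well above background on any array. Ndufc1, a small membrane subunit, read 19312 and 14016 on the EnhDel arrays, against 19811 and 19326 on the control arrays. Ndufa10 was an exception to the pattern, at 1756 and 2316 on the EnhDel arrays, against 2119 and 2149 on the control arrays: it was lowest on EnhDel replicate 1. Ndufa5 also shows how the EnhDel arrays parted, with 22034 and 15049, against 19402 and 18053 on the control arrays. Its EnhDel values lay above and below both controls, and its difference was -0.04 ± 0.24. The 4 assembly factors, which help to build complex I and are not part of it, had a median difference of -0.03 and ranged from -0.12 for Ndufaf4 to 0.02 for Ndufaf2, all with overlap.

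**Figure D2:**
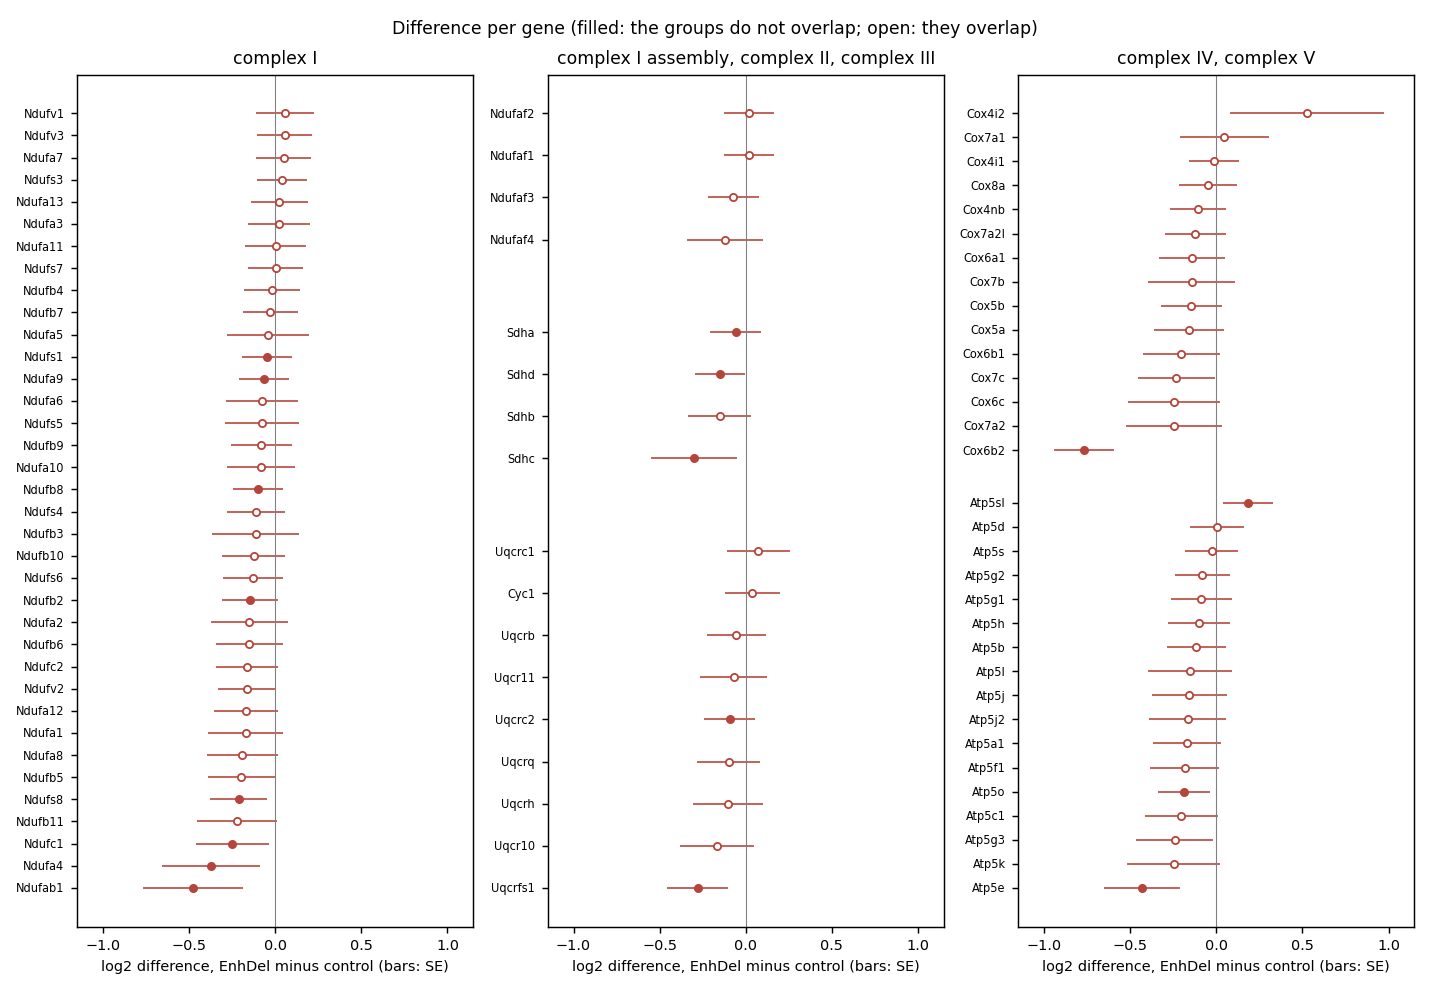
Log2 difference, EnhDel minus control, for the tested genes but 1 that is not reported here (horizontal axis), with bars for the standard error from limma (n = 2 per group), in 3 panels ordered by complex and by value. Filled points are genes whose groups do not overlap: 16 lie below 0, and 1, Atp5sl, lies above it.

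Complex II, succinate dehydrogenase, is encoded by the nucleus alone, and all 4 genes lay below control, with a median of -0.15. Sdha, the flavoprotein that oxidises succinate, had a scaled signal of 11889 and 12455 on the EnhDel arrays, against 12521 and 12841 on the control arrays. The groups did not overlap, yet the gap was small, at -0.06 ± 0.15 (SE, n = 2 per group). Sdhd, a membrane anchor whose promoter is printed above, read 9238 and 8999 on the EnhDel arrays, against 9941 and 10267 on the control arrays. It was below control by a like amount on both EnhDel arrays, -0.13 and -0.17. Sdhc, the other anchor, read 6979 and 4592 on the EnhDel arrays, against 6981 and 6983 on the control arrays. Its difference of -0.30 ± 0.25 rested on EnhDel replicate 2 on this probe, since replicate 1 was level with the controls. A second, dimmer Sdhc probe, also well above background on all 4 arrays, differed by -0.02. Sdhb, the iron-sulfur subunit, read 37238 and 29431 on the EnhDel arrays, against 37107 and 36464 on the control arrays, with overlap. The 3 genes without overlap were thus not alike: Sdha and Sdhd were low on both EnhDel arrays and Sdhc on 1. The lowest adjusted p of the complex was 0.713.

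Complex III, the cytochrome bc1 complex, had a median difference of -0.09 over 9 genes, with 7 below 0 and 2 lower without overlap. Uqcrfs1, the Rieske iron-sulfur protein, had a scaled signal of 12878 and 10455 on the EnhDel arrays, against 14261 and 13908 on the control arrays. It was below both controls on both EnhDel arrays, by -0.28 ± 0.18 at an adjusted p of 0.632. In build mm9 the Uqcrfs1 probe spans chromosome 13, bases 30632363 to 30632422. Cyc1, cytochrome c1, read 7732 and 8856 on the EnhDel arrays, against 8301 and 7819.6 on the control arrays. Uqcrc1, a core protein without a redox centre, read 4845 and 6064 on the EnhDel arrays, against 5267 and 5038 on the control arrays. Cyc1 and Uqcrc1 were the genes of the complex that did not lie below control, and on EnhDel replicate 2 each was the highest of the 4 arrays. Uqcrc2, the partner of Uqcrc1, read 12200.1 and 11597 on the EnhDel arrays, against 13059 and 12338 on the control arrays. The other 5 genes, Uqcrb, Uqcrh, Uqcrq, Uqcr10 and Uqcr11, are small subunits, and each lay above the control mean on EnhDel replicate 1 and below it on EnhDel replicate 2.

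Complex IV, cytochrome c oxidase, had a median difference of -0.14 over 15 tested genes, with 13 below 0 and 1 without overlap. Several of its subunits exist as a general form and a form known from particular tissues. Cox6b2, known in mammals as a testis form, had a scaled signal of 188 and 154 on the EnhDel arrays, against 292 and 289 on the control arrays. It was 1.70-fold lower, a log2 difference of -0.77 ± 0.17 (SE, n = 2 per group; 95% interval -1.24 to -0.30), and was below control on both EnhDel arrays. Its unadjusted p in limma was 0.00953 and its adjusted p 0.304. The single Cox6b2 probe spans chromosome 7, bases 4703488 to 4703547, in build mm9. Without EnhDel replicate 2 the difference was -0.62. With normexp, another background correction, its difference was -0.04, or -0.55 once 6 spots of EnhDel replicate 1 with a high local background had been repaired. Cox6b1, the general form, read 4685 and 3345 on the EnhDel arrays, against 4714 and 4400.3 on the control arrays, with overlap.

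Cox4i2, a form known from lung and from low oxygen, read 110.3 and 260.3 on the EnhDel arrays, against 123 and 113 on the control arrays. This was the highest difference of all 86 genes, 0.53 ± 0.45, and it came from EnhDel replicate 2 alone: without that array it was -0.09. Cox4i1, the general form, read 53313 and 53352 on the EnhDel arrays, against 55117 and 52491 on the control arrays. Its EnhDel values nearly coincided and lay between the controls. Cox7a1, the form of heart and skeletal muscle, read 183 and 118 on the EnhDel arrays, against 145 and 139 on the control arrays. Cox7a2, the general form, read 21264 and 13145 on the EnhDel arrays, against 20494 and 19172 on the control arrays. For both of these the EnhDel values straddled the control values. Cox7a2l has been described as joining complexes III and IV into supercomplexes. It read 68407 and 57681 on the EnhDel arrays, against 73252 and 63717 on the control arrays, and the groups overlapped. The testis forms Cox7b2 and Cox8c and the muscle form Cox8b were not well above background on any array, while Cox8a, the general form, read 81145 and 69041 on the EnhDel arrays, against 80012 and 74800.5 on the control arrays. Cox5a and Cox5b, which surround the catalytic core, differed by -0.16 ± 0.20 and -0.15 ± 0.18. Cox6a1, a regulatory subunit of the general form, differed by -0.14 ± 0.19. The remaining small subunits Cox6c, Cox7b and Cox7c each lay between -0.58 and -0.44 on EnhDel replicate 2 and between 0.02 and 0.15 on EnhDel replicate 1.

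Complex V, the ATP synthase, had a median difference of -0.16 over 17 genes, with 15 below 0, and its array medians were 0.02 on the first EnhDel array and -0.36 on the second. The catalytic head is built from the alpha, beta and gamma subunits. Atp5b, the beta subunit that makes ATP, had a scaled signal of 75334 and 62281 on the EnhDel arrays, against 76070.4 and 72518 on the control arrays. Atp5a1, the alpha subunit, read 41742 and 32195 on the EnhDel arrays, against 43110.4 and 39548 on the control arrays. Atp5c1, the gamma shaft, read 38079.7 and 27775 on the EnhDel arrays, against 37978 and 36906 on the control arrays. In all 3, EnhDel replicate 1 sat among or beside the controls and EnhDel replicate 2 lay below them. Atp5c1 had a second probe with the opposite sign, 0.07.

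Atp5e, the epsilon subunit of the rotor stalk, read 50883 and 36807 on the EnhDel arrays, against 61436 and 55337 on the control arrays. Both EnhDel values were below both controls, and the difference of -0.43 ± 0.22 (SE, n = 2 per group), 1.35-fold lower, had an adjusted p of 0.564. In build mm9 the Atp5e probe spans chromosome 2, bases 174286656 to 174286715. Atp5o, the subunit that ties the head to the stator, read 9445 and 8734 on the EnhDel arrays, against 10066 and 10604 on the control arrays, also without overlap. The proton-carrying c ring comes from 3 genes that encode the same mature protein. Atp5g1 differed by -0.09 ± 0.18, Atp5g2 by -0.08 ± 0.16 and Atp5g3 by -0.24 ± 0.22, all with overlap. Atp5sl, the gene that RefSeq calls Dmac2, known from human cells for a part in complex I assembly, read 13892 and 13240.0 on the EnhDel arrays, against 11755 and 12157 on the control arrays. It was above control on both arrays without overlap, by 0.18 ± 0.15 at an adjusted p of 0.706.

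On EnhDel replicate 2, 9 of the 86 genes did not lie below the control mean. Among them were Ndufv1, Uqcrc1 and Cyc1, of complexes I and III, which were 0.19, 0.24 and 0.14 above it, and Ndufs3, which was level at 0.01. They also included Ndufa10, Cox4i2 and Atp5sl. These genes were picked out after their values were seen.

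Genes that act around the respiratory chain gave a mixed picture. Of all genes tested, 27.2% were higher and 16.6% lower without overlap. The share lower was 8.82% for assembly factors, 25% for regulators and 18.75% for electron carriers. It was 35.3% for citric acid cycle genes and 50% for transport genes. No list had a share higher above that of all genes. Of 34 further tested assembly factors of the complexes, 6 were higher and 3 lower without overlap, and the medians on the EnhDel arrays were 0.03 and 0.00, so their median was level on EnhDel replicate 2. Of 16 genes for regulators of mitochondrial genes, 1 was higher and 4 lower without overlap, with medians of 0.01 and -0.24. Ppargc1a, the coactivator PGC-1α that is known to raise mitochondrial gene expression, had a scaled signal of 73.4 and 73.5 on the EnhDel arrays, against 153 and 122 on the control arrays. It was below control on both EnhDel arrays by -0.89 ± 0.18 (SE, n = 2 per group), with an adjusted p of 0.274. Of 16 tested electron carrier genes, 1 was higher and 3 lower, with medians of 0.00 and -0.15. Coq7, an enzyme of ubiquinone synthesis, read 712 and 601 on the EnhDel arrays, against 805 and 943 on the control arrays. Of 17 citric acid cycle genes, 2 were higher and 6 lower, with medians of -0.03 and -0.08. Fh1, fumarase, read 9337 and 7893 on the EnhDel arrays, against 11120 and 11890 on the control arrays, and had the lowest p of that list at an adjusted p of 0.474. Of 8 tested genes for ADP, ATP and phosphate transport, 0 were higher and 4 lower, with medians of -0.03 and -0.18. No gene of these lists passed the adjusted test.

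**Figure D3:**
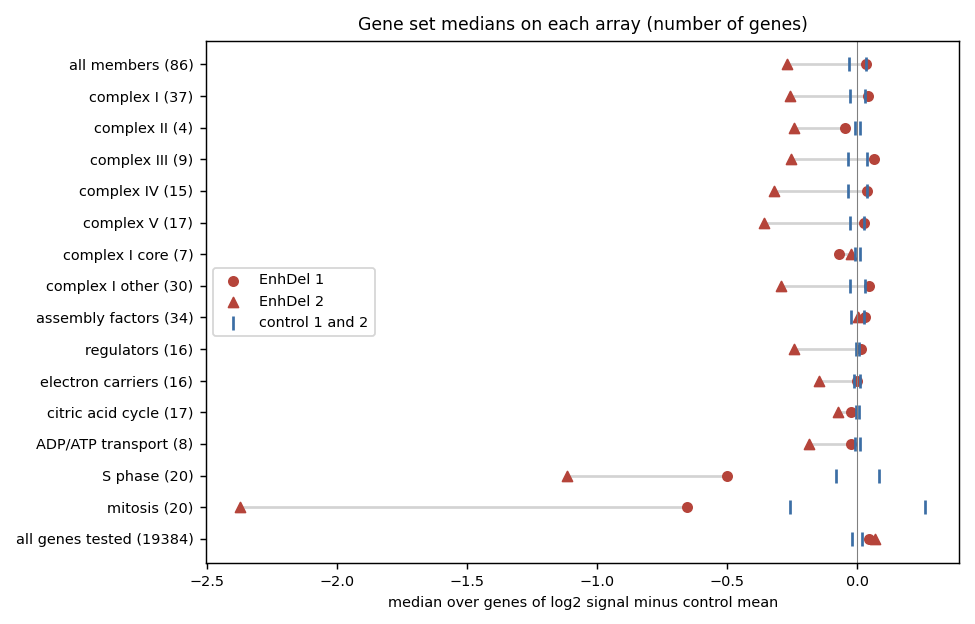
Medians over genes of the log2 signal minus the control mean (horizontal axis) for gene sets (rows, with the number of genes tested), as circles for EnhDel 1, triangles for EnhDel 2 and bars for the control arrays. The 86 oxidative phosphorylation genes sit at 0.03 and -0.27 on the EnhDel arrays, and the mitosis genes at -0.65 and -2.37.

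Most markers of cell division lay below control on both EnhDel arrays, and further below on the second. With the 75th percentile, the oxidative phosphorylation genes had a low median on the second array only (0.03 and -0.27). Of 20 genes for mitosis, 19 were lower without overlap, with medians of -0.65 on the first EnhDel array and -2.37 on the second. Of 20 genes for S phase, 18 were lower and 1 higher, with medians of -0.50 and -1.12. Summed over the lists, the signal relative to the 75th percentile was 41.6 and 11.5 on the EnhDel arrays, against 51.6 and 75.03 on the control arrays, for mitosis, and 83.2 and 50.6, against 104 and 113, for S phase. Their part in the oxidative phosphorylation values was not tested. In sorted cells measured in bulk, fewer cells of a kind and less RNA per cell cannot be told apart.

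Some markers of other cell types differed too, although the sort was set to leave out cells with lineage antigens. The counts below are without overlap, beside 27.2% higher and 16.6% lower over all genes tested. Plasmacytoid dendritic cell markers (30% higher, 0% lower) and mast cell and basophil markers (20% each way) were near or under these shares. Of 12 monocyte and macrophage markers, 8 were lower without overlap and 1 higher, with sums of 7.54 and 8.73 on the EnhDel arrays, against 21.5 and 18.3 on the control arrays. Of 10 tested T and NK cell markers, 6 were higher, with sums of 19.6 and 32.3, against 12.9 and 10.704. Cd4 alone made up most of these sums, at scaled signals of 15460 and 28050, against 9126 and 8030. Of 11 tested B-lineage markers, 8 were lower and 1 higher, with sums of 154 and 124, against 153 and 148. Blnk and Dntt, whose groups overlapped, made up most of these sums. The median log2 difference of the B-lineage list was -1.03. Of 8 tested neutrophil markers, 6 were lower and 2 higher, with sums of 1.13 and 10.4, against 19.1 and 22.8, while Ltf, Ngp, Mmp8 and Mmp9 were not well above background on any array. Of 10 plasmacytoid dendritic cell markers, 3 were higher, with sums of 1017 and 974, against 1050.0 and 932. These were the largest sums of the marker lists on every array of both groups, above those of the B-lineage list. Erythroid markers were higher in 6 of 6 tested genes, at low sums of 1.55 and 1.72, against 0.502 and 0.901. Mast cell and basophil markers were higher in 1 and lower in 1 of 5, with sums of 0.408 and 1.85, against 0.468 and 0.528, and Fcer1a and Ms4a2 were not well above background on any array. Of 7 tested genes for the sorting gate and early progenitors, 4 were lower and 1 higher, with sums of 240 and 190, against 256 and 225, and Enpep, the gene of the excluded BP1 antigen, was not well above background on any array. The part of such cells in the oxidative phosphorylation values was not tested either.

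The low median on EnhDel replicate 2 kept its sign under 7 ways of scaling the arrays, while its size varied. The median of the 86 genes on that array was -0.27 with the 75th percentile, -0.27 with either form of normexp, -0.17 with quantile normalization, -0.55 with median scaling, -0.14 with cyclic loess and -0.20 in the authors' deposited table. Median scaling also moved all genes, to a median of -0.21 on that array. On EnhDel replicate 1 the median was between -0.04 and 0.03 under all of these except normexp without repair, where it was -0.46. The direction of the 7 core subunits of complex I on EnhDel replicate 2 turned with the scaling, from -0.30 with median scaling to 0.05 with quantile normalization and 0.10 in the authors' deposited table, while the 30 other subunits were between -0.57 and -0.15. Most of the 86 genes were brighter than the arrays' 75th percentile, and genes of like brightness were not compared. The median difference of the 86 genes less that of all genes was -0.17 with the 75th percentile. It was -0.11 with quantile normalization and -0.088 with cyclic loess.

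**Figure D4:**
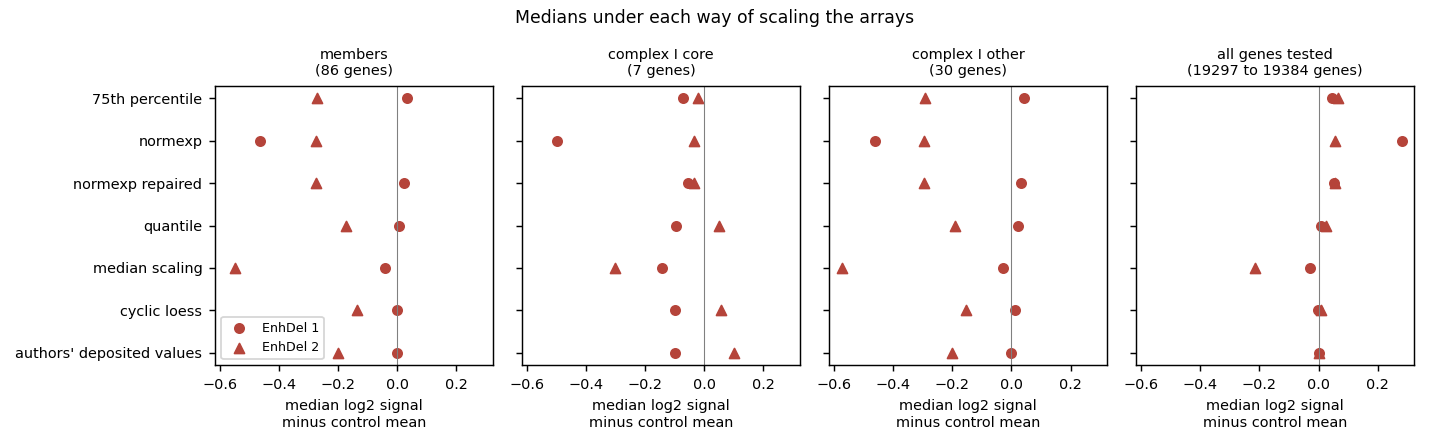
Medians of the log2 signal minus the control mean (horizontal axis) on EnhDel 1 (circles) and EnhDel 2 (triangles) under 7 ways of making arrays comparable (rows), in panels for all 86 genes, the 7 core and 30 other subunits of complex I, and all genes tested. The EnhDel 2 median of the 86 genes is below 0 in every row, between -0.55 and -0.14.

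Promoter windows were held for 74 of the 90 genes, 72 of them tested, with 3 matched through another symbol. Sequences came from RefSeq, build GRCm38.p6, and a gene with several windows counted once. The NRF1 letters GCGCNNGCGC, searched on both strands, were found in 20 of the 72 genes (27.8%) and in 13.5% of 11152 tested genes with a window. Sdhd and Ndufs6 above are examples, with matches that begin at -79 and -16 counted from the start. The ETS letters CCGGAAG were found in 17 genes (23.6%) and in 18.5% of tested genes, as in Sdhd at -46 and Atp5e at -102. The YY1 letters AAGATGGC were found in 11 genes (15.3%) and in 4.93% of tested genes, and in Ndufs6 the match begins at 33, past the start. Over all 32851 windows, those of genes not tested included, the shares were 6.23%, 8.86% and 2.75%. Matches of different motifs were each counted where they overlapped. Any of the 3 was found in 58.3% of the 72 genes and in 32.2% of tested genes.

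The medians were close with and without a match. On EnhDel replicate 2 the median was -0.29 for the 20 genes with an NRF1 match and -0.29 for the 52 without. For ETS it was -0.32 for 17 genes with a match and -0.28 for 55 without, and for YY1 -0.24 for 11 genes with and -0.29 for 61 without. On EnhDel replicate 1 these medians lay between 0.02 and 0.06. A match is a description of letters and not of a bound factor, and no test was made between these groups.

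**Figure D5:**
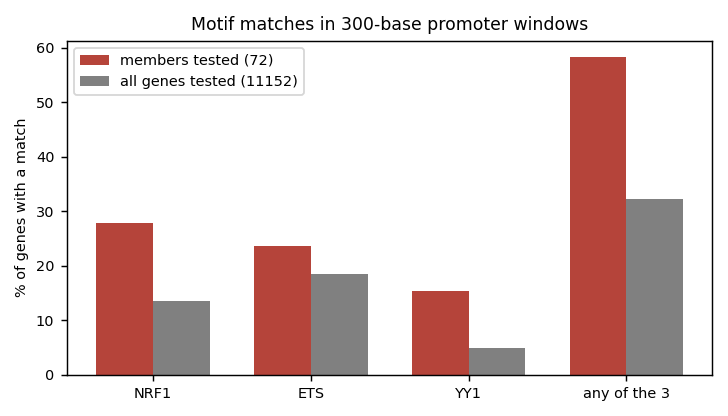
Share of genes with at least 1 match to each motif in the promoter window (vertical axis, percent) for the 72 tested oxidative phosphorylation genes with a window and for all 11152 tested genes with one. NRF1 letters were in 27.8% of the 72 genes and 13.5% of all tested genes, and YY1 letters in 15.3% and 4.93%.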

How the data were processed

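The authors' deposited scanner files hold the intensity of 44397 spots for each of 4 1-colour arrays, from Agilent Feature Extraction 10.7.3.1 per the file headers, with probe positions in mouse build mm9. A second file is the authors' deposited log2 table, rounded to 1 decimal and used as an alternative. How it was normalized is not given in the sources used here.

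Control spots and outlier spots were left out. The processed signal was taken as log2 minus each array's 75th percentile, and spots of a probe were averaged. A gene is its brightest probe, and was tested if either group had it well above background on both of its arrays. The oxidative phosphorylation genes kept the file's names; others were named through RefSeq accessions (26581 of 39429 probes matched). EnhDel was set against control by limma (version 3.58.1, R version 4.3.3; lmFit, eBayes), adjusting p-values by Benjamini-Hochberg over all genes, and the fit was tested on simulated data. Precision is limited by the number of arrays.

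The genes and lists were chosen with earlier results of these data known. Genes named with values were the catalytic subunits, isoform pairs, extremes of each complex and those of lowest p; Ndufa5, Ndufa10, Ndufc1, Cox6c, Cox7b, Cox7c and the small complex III subunits were added after their values were seen. A further gene that this rule picks is not reported here by name, but counts in every total. Alternatives were 2 forms of normexp (offset 50), quantile normalization, median scaling, cyclic loess, other filters and probe rules, a replicate block, an intensity trend with robust variance, the deposited table, each array left out and, added after seeing the data, subunits only.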

Additional observations from a re-analysis of the deposited data

How the results depend on the processing

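No oxidative phosphorylation gene passed the adjusted threshold under any alternative except without EnhDel replicate 1, and with each array left out in turn the count ran from 0 to 4. Over all genes the count ran from 0 to 3221 on leaving out an array, and was 26 with median scaling. Genes lower without overlap were 71 with normexp, 46 with median scaling and 10 in the authors' deposited table, beside 23.3%, 31.9% and 15.0% of all genes tested, and 18 to 74 without single arrays, beside 21.6% to 38.9%. Genes higher without overlap were 3 with repaired normexp, 7 with quantile normalization, 0 with median scaling, 10 with cyclic loess, 2 in the deposited table and 0 for subunits only, and 3 to 42 without single arrays, beside 29.2%, 22.1%, 14.25%, 21.0% and 14.7% of all genes for the first 5 of these settings and 34.1% to 49.9% without single arrays. At an unadjusted p under 0.05 in limma, 1 was higher with normexp and 1 in the deposited table. Likewise 3 were lower with normexp, 2 with repaired normexp and 2 in the deposited table, and 0 to 27 without single arrays. Over all genes and in either direction, such a p was found for 1208 of 19381 genes with normexp and 1892 of 19381 with repaired normexp. In the deposited table it was found for 1914 of 19297. The 27 came without EnhDel replicate 1, a fit with 1 array in that group. Such a p was then common over all genes too, so the 27 cannot be read as particular to this set. The median of the 86 genes was -0.37 with normexp and -0.29 with median scaling, and -0.27 to 0.032 without single arrays. With normexp after repair of 6 spots of EnhDel replicate 1, the median was -0.12. In that setting 14 genes were lower without overlap, beside 16.1% of all genes tested. By complex, normexp gave -0.35 for complex I, -0.11 for its assembly factors, -0.42 for II, -0.35 for III, -0.41 for IV and -0.42 for V, and median scaling gave -0.28 for I, -0.20 for assembly, -0.33 for II and -0.27 for III. Without single arrays the medians were -0.26 to 0.042 for I, -0.062 to 0.042 for assembly, -0.24 to -0.047 for II, -0.26 to 0.066 for III, -0.32 to 0.038 for IV and -0.36 to 0.025 for V. Some differences, none of them past the threshold, turned sign. Median scaling lowers every gene by the same amount (median over all genes tested -0.12, against 0.06 with the 75th percentile), so the turns listed for it follow from the scaling itself. With normexp, the difference was -0.205 for Ndufs3, -0.28 for Ndufs7, -0.18 for Ndufv1, -0.14 for Uqcrc1, -0.20 for Cyc1, -0.075 for Atp5sl and -0.058 for Ndufaf2. With repaired normexp, the difference was -0.018 for Ndufs7 and 0.012 for Cox4i1. With quantile normalization, the difference was 0.056 for Cox4i1 and -0.069 for Cox7a1. With median scaling, the difference was -0.14 for Ndufs3, -0.17 for Ndufs7, -0.12 for Ndufv1, -0.10 for Uqcrc1, -0.14 for Cyc1, -0.13 for Cox7a1 and -0.16 for Ndufaf2. With cyclic loess, the difference was 0.063 for Cox4i1, -0.12 for Cox7a1, 0.034 for Cox8a and -0.0040 for Ndufaf2. In the authors' deposited table, the difference was 0.050 for Sdha, 0.050 for Cox4i1 and -0.10 for Cox7a1. On another probe it was 0.065 for Atp5c1 and 0.047 for Ndufaf4. Leaving out each array in turn, the range was -0.079 to 0.082 for Ndufs7, -0.27 to 0.37 for Cox7a1, -0.013 to 0.050 for Ndufaf2, -0.073 to 0.19 for Ndufv1, -0.32 to 0.018 for Sdhb, -0.088 to 0.24 for Uqcrc1, -0.059 to 0.14 for Cyc1, -0.37 to 0.057 for Cox5a, -0.29 to 0.0022 for Cox5b, -0.36 to 0.016 for Atp5a1, -0.25 to 0.020 for Atp5b, -0.43 to 0.025 for Atp5c1 and -0.093 to 1.146 for Cox4i2. It was -0.32 to 0.038 for Cox6a1, -0.45 to 0.041 for Cox6b1, -0.59 to 0.10 for Cox7a2, -0.24 to 0.0019 for Cox7a2l, -0.16 to 0.069 for Cox8a, -0.23 to 0.060 for Atp5g1, -0.18 to 0.012 for Atp5g2, -0.49 to 0.0090 for Atp5g3, -0.34 to 0.099 for Ndufaf4, -0.047 to 0.023 for Cox4i1 and -0.0039 to 0.082 for Ndufs3. On EnhDel replicate 1 the median of the 86 genes was -0.46 with normexp and 0.02 with repaired normexp. Of 38 named genes, 7 turned sign with normexp and 2 with repaired normexp. Beyond this repair, the cause of the shifts listed here was not tested. With the replicate number as a block, 0 of the 86 genes passed (lowest adjusted p 0.416) and the other counts were as without it. Same-numbered arrays did not deviate together (r = -0.024 over 19384 genes). With 1 replicate difference per group, this cannot settle whether the arrays were paired. The other filters, probe rules and variance model moved none of these counts by over 1.5 times.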
